A study of Homo sapiens with 12 samples.

Results

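RS4:11 cells exposed for 6 h to obatoclax at its EC50 were compared with RS4:11 cells exposed for 6 h to vehicle, over all genes measured. The comparison used 4 of the 12 arrays of the series, 2 with obatoclax and 2 with vehicle, chosen by their labels alone. RS4:11 is an established human line of acute lymphoblastic leukaemia that carries the MLL-AF4 fusion (KMT2A-AFF1). No other genotype, treatment or selection separated the groups. The EC50, the dose that gives a 50% effect, was read in a 72 h assay, so RNA was taken well before the time at which the dose was set. The concentration itself was not given in the sources used here. 2 further arrays of RS4:11 at 3 times that dose, written 3xEC50, and 4 arrays of SEM-K2, a second line with the same fusion, at vehicle and EC50 stand beside it. RNA was measured on the Affymetrix U133 Plus 2 array, and values are the authors' GCRMA values, read as log2. Replicates are described as biologic, but nothing states that cultures were passaged or treated apart, and the p-values then cover only the scatter among these arrays, part of which may be technical. A single line also limits the model, since all 4 arrays share its genetic background.

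Obatoclax was designed to occupy the groove of antiapoptotic BCL2 family proteins, by which BCL2, BCL-XL (BCL2L1) and MCL1 hold BAX and BAK1 in check. Cells also answer many small molecules through the integrated stress response, in which kinases of the translation factor eIF2 favour translation of the transcription factor ATF4. ATF4 and its partners drive genes of amino acid import, amino acid synthesis and tRNA charging. The unfolded protein response of the endoplasmic reticulum (ER) drives ER chaperones such as HSPA5, and the lysosome signals amino acid supply to mTOR through folliculin (FLCN) and the RAG GTPases.

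The 4 arrays had the profile of a B cell precursor. Of 25 B precursor surface and receptor genes with a probe set, 23 lay above a floor of 4 on every one of the 4 arrays, among them the surrogate light chain genes VPREB1 and IGLL1. CD34 and MME, which many precursor leukaemias express, lay below that floor. Markers of other cells were scarce on vehicle and on EC50 arrays alike: 1 of 15 myeloid, 3 of 18 T and NK, 2 of 10 erythroid and megakaryocyte, and 3 of 14 stromal or epithelial genes with a probe set lay above the floor on each of the 4 arrays. Their summed levels (log2 of the sum) were 7.39 to 7.51 and 7.40 to 7.45 for myeloid, 11.01 to 11.16 and 11.19 to 11.26 for T and NK, 6.80 to 7.19 and 6.87 to 6.98 for erythroid and megakaryocyte, and 13.79 to 13.98 and 14.15 to 14.15 for stromal or epithelial markers, on vehicle and EC50 arrays in that order. 1 array stood apart. RS4:11 vehicle replicate 1 gave 9.85 for the 18S ribosomal RNA control probe set, against 5.20 to 6.98 on the other 11 arrays of the series. The 3' minus 5' difference of ACTB, a measure of RNA quality, was 0.90 to 1.07 on the 4 arrays. That of GAPDH was 0.30 on EC50 replicate 2 and 0.09 to 0.14 on the other 3. List medians are therefore also given as the range over leaving out each of the 4 arrays in turn, with the arrays at its ends named where they move it by over 1.5 times. The stromal or epithelial marker sum, which was higher on both EC50 arrays, was nearly all VIM. VIM read 13.97 and 13.77 with vehicle and 14.14 and 14.13 with EC50 obatoclax. COL1A1 (6.65 to 6.94) and KRT8 (4.86 to 4.92) were far lower on the 4 arrays. The T and NK sum was also higher on both EC50 arrays. Its genes above the floor were LCK (8.90 to 9.63), ZAP70 (9.69 to 9.85) and NKG7 (9.29 to 9.75). The part of these arrays and of those sums in the results was not tested.

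No gene passed the test. Of 10561 genes tested with limma, 0 (0%) were called higher and 0 (0%) lower at an adjusted p under 0.05, and the smallest adjusted p, shared by 9 genes, was 0.22. At an unadjusted p under 0.05 there were 444 genes, of which 261 (2.47%) were higher and 183 (1.73%) lower with EC50 obatoclax, while chance alone would give about 528. Both EC50 arrays lay above both vehicle arrays for 1853 genes (17.5%) and below them for 1366 (12.9%). Of all genes tested, 5883 (55.7%) lay above 0, and the median difference was 0.02. Counts of list members above 0 are to be read against that share. Counts of members with an unadjusted p under 0.05 are to be read against 2.47% higher and 1.73% lower. Counts of members with arrays apart are to be read against 17.5% above and 12.9% below. The median absolute difference between group means was 0.15. Between single arrays it was 0.23 for the vehicle replicates and 0.24 for the EC50 replicates. Means of 2 arrays scatter less than single arrays, so these values do not set the difference between groups against noise. Differences of at least 1 (2-fold) were found for 60 genes, 33 higher and 27 lower, and the arrays of the 2 groups did not overlap for 28 and 25 of these. With the replicate number as a block, which the check of the numbers allows, still 0 genes were called, but 843 had an unadjusted p under 0.05 (4.57% higher and 3.41% lower) and the smallest adjusted p was 0.081. The values that follow therefore describe these 4 arrays. Single differences are given with their standard error (±), and none of them is a called change.

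**Figure D1:**
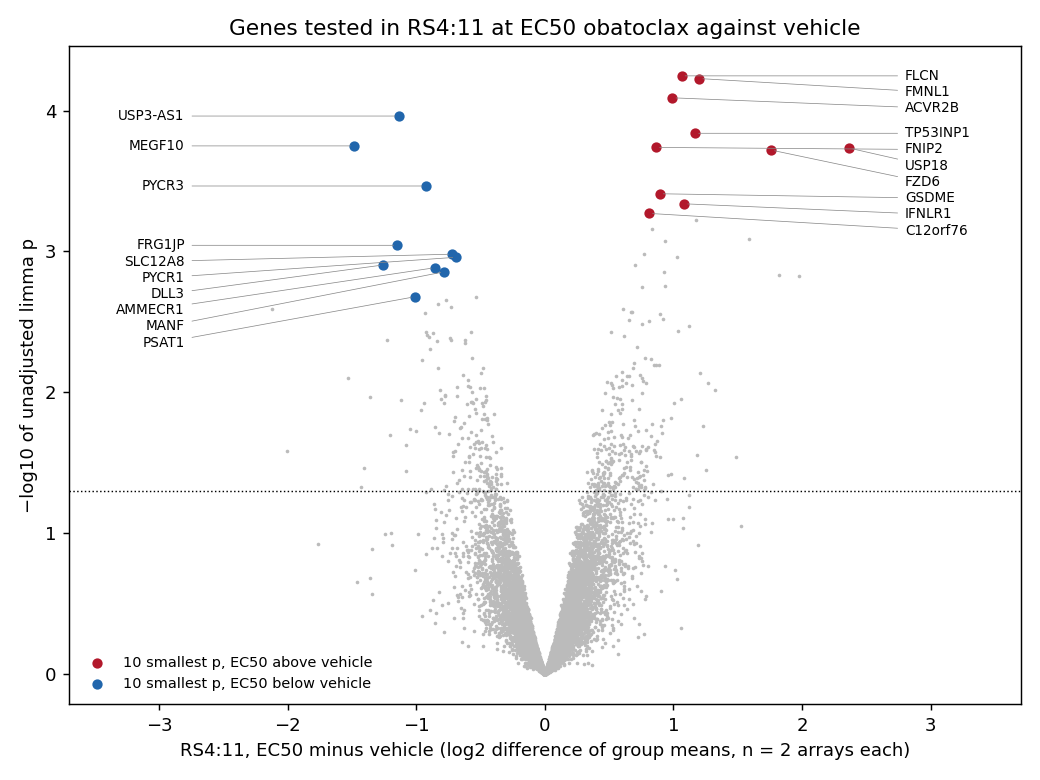
Each point is 1 of 10561 genes in RS4:11; the x axis is the log2 difference EC50 minus vehicle (2 arrays each) and the y axis the negative log10 of limma's unadjusted p. The named genes are the 10 with the smallest p in each direction among genes whose arrays did not overlap; the dotted line marks an unadjusted p of 0.05, and FLCN and FMNL1 lie highest, while no gene passed after adjustment.

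The smallest p of the comparison belonged to FLCN, folliculin, which acts on RAG GTPases at the lysosome. Its 2 vehicle arrays read 5.25 and 5.08 and its 2 EC50 arrays 6.26 and 6.20, a difference of 1.06 ± 0.15 (adjusted p = 0.22). Another FLCN probe set above the floor differed by 0.25, and the mean of the gene's probe sets by 0.35. FNIP2, a binding partner of folliculin, read 8.38 and 8.34 with vehicle and 9.10 and 9.35 with EC50 obatoclax, 0.86 ± 0.14 higher. In both genes the replicates lay close together and the groups well apart. FMNL1, a formin of blood cells that shapes the actin skeleton, read 6.48 and 6.16 against 7.37 and 7.68, a difference of 1.20 ± 0.17. GSDME, a gasdermin that can turn apoptosis into lytic death once caspase-3 cuts it, read 9.73 and 9.60 against 10.52 and 10.59, which is 0.89 ± 0.17 higher. IFNLR1, a receptor chain for type III interferons, read 5.70 and 5.14 against 6.42 and 6.58. C12orf76, an open reading frame of unknown role, read 6.74 on each vehicle array and 7.61 and 7.49 on the EC50 arrays.

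4 more of the 10 genes with the smallest p on the higher side started from a vehicle mean under the floor, so their fold is a lower bound. USP18, which removes ISG15 and dampens interferon signalling, read 3.83 and 4.03 with vehicle and 6.14 and 6.46 with EC50 obatoclax, at least 4.92-fold higher (fitted difference 2.37 ± 0.40). FZD6, a Wnt receptor, read 3.65 and 2.59 against 4.88 and 4.88 and was at least 1.84-fold higher. ACVR2B, an activin receptor, read 3.72 and 3.86 against 4.85 and 4.71 and was at least 1.72-fold higher. TP53INP1, a stress gene downstream of p53, read 3.20 and 3.17 against 4.53 and 4.18, at least 1.28-fold higher. Adjusted p-values of all 10 genes ran from 0.22 to 0.44, and all 10 were higher without vehicle replicate 1 too. With the mean of all probe sets of a gene, FMNL1 differed by 0.76, ACVR2B by 0.59, FNIP2 by 0.48 and C12orf76 by 0.32.

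On the lower side, 3 of the 10 genes with the smallest p make amino acids. PYCR1 and PYCR3 encode enzymes of the last step of proline synthesis, and PSAT1 encodes the aminotransferase of serine synthesis. PYCR1 read 9.48 and 9.53 with vehicle and 8.82 and 8.82 with EC50 obatoclax, which is 0.69 ± 0.15 lower. PYCR3 read 6.11 and 6.28 against 5.46 and 5.08, a difference of -0.93 ± 0.17. PSAT1 read 11.28 and 10.83 against 10.28 and 9.80, a difference of -1.01 ± 0.24 and of -0.79 without vehicle replicate 1. MANF is also among the 10 and is a secreted ER stress protein described with the chaperones. The others were MEGF10, a phagocytic receptor (5.08 and 5.90 against 3.95 and 4.06), DLL3, a Notch ligand (5.01 and 4.25 against 3.46 and 3.29), AMMECR1 (9.90 and 10.17 against 9.42 and 8.93), the solute carrier SLC12A8 (4.15 and 4.04 against 3.37 and 3.38), the antisense RNA USP3-AS1 (4.01 and 4.25 against 3.20 and 2.79) and FRG1JP, a pseudogene whose probes may also read its relatives (6.65 and 6.57 against 5.69 and 5.23, and -0.40 with the mean of its probe sets). DLL3, SLC12A8 and USP3-AS1 had EC50 means under the floor, so their fold is a lower bound. They were at least 1.55-, 1.07- and 1.09-fold lower, in that order. Of the RS4:11 arrays and the SEM-K2 vehicle and EC50 arrays, only the RS4:11 vehicle arrays read DLL3 and USP3-AS1 above the floor. Both thus passed the filter through arrays where they were high. Adjusted p-values of the 10 genes ran from 0.22 to 0.67.

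Genes of amino acid supply and tRNA charging lay below their vehicle level as a group. Over 39 tested genes of amino acid transport, amino acid synthesis and cytosolic tRNA charging, 36 were lower with EC50 obatoclax, 15 had an unadjusted p under 0.05 on the lower side and 0 on the higher side, and the arrays were apart for 24 below and 1 above. Over all genes, 1.73% had such a p on the lower side, and the arrays of 12.9% were apart below. The median difference of the 39 genes was -0.32, against 0.02 over all genes. These lists were drawn up with earlier results of the same arrays known, so their direction is not independent evidence.

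Among 11 tested amino acid transporters, 9 were lower, 4 of them with an unadjusted p under 0.05, and the list median was -0.13, from -0.32 without EC50 replicate 2 to -0.09 without vehicle replicate 1 or EC50 replicate 1. SLC7A11 imports cystine in exchange for glutamate. It read 7.63 and 6.88 with vehicle and 5.91 and 4.35 with EC50 obatoclax, 4.36-fold lower on the fitted difference of -2.12 ± 0.52 (adjusted p = 0.70; 0.081 with the replicate block). Its replicates were far apart within each group, in the same order, so that the differences within replicate numbers 1 and 2 were -1.72 and -2.53. Leaving out 1 array moved the difference from -1.35 (EC50 replicate 2) to -2.90 (EC50 replicate 1), with -1.75 without vehicle replicate 1. SLC7A5, which carries large neutral amino acids, read 11.02 and 11.04 against 10.39 and 9.94, a difference of -0.87 ± 0.23. SLC3A2, the shared heavy chain that brings both transporters to the cell surface, read 9.35 and 9.06 against 8.62 and 8.55, which is 0.62 ± 0.17 lower. The glutamine carriers SLC38A2 and SLC1A5, by contrast, differed by 0.04 and -0.05, with overlapping arrays.

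Of 11 tested enzymes of amino acid and one-carbon synthesis, 10 were lower, with a median of -0.32, from -0.41 to -0.18 (the latter without vehicle replicate 1). Besides PYCR1 and PSAT1, MTHFD2, the mitochondrial folate enzyme, read 12.68 and 12.57 against 12.28 and 12.08, a difference of -0.45 ± 0.15. PHGDH, the first enzyme of serine synthesis, was lower by 0.33 ± 0.22, or by 0.12 without vehicle replicate 1. ASNS, asparagine synthetase and a standard ATF4 target, read 6.91 and 7.28 against 6.82 and 7.04, and its arrays overlapped.

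All 17 tested cytosolic tRNA synthetases, which join amino acids to their tRNAs, lay below vehicle, with a median of -0.40. 8 had an unadjusted p under 0.05, against 1.73% of all genes on the lower side, and the arrays of 12 were apart, against 12.9%. WARS1, for tryptophan, read 9.68 and 9.55 with vehicle and 8.52 and 8.80 with EC50 obatoclax, -0.95 ± 0.27. CARS1, for cysteine, read 10.07 and 9.96 against 9.52 and 8.85, a difference of -0.83 ± 0.24, and NARS1, for asparagine, 12.38 and 12.31 against 11.92 and 11.82, -0.48 ± 0.14. The smallest difference in the list was -0.01, for RARS1. On leaving out each array the median of the 17 ran from -0.52 to -0.31, and CARS1 differed by -0.50 without EC50 replicate 2. The 15 tested mitochondrial tRNA synthetases, which serve the organelle's own ribosomes, had a median of -0.12, with 12 below 0 and 1 with an unadjusted p under 0.05 (YARS2, -0.45 ± 0.17). Leaving out a vehicle array gave that list a median of -0.24 (replicate 1) or -0.04 (replicate 2), and leaving out an EC50 array gave 0.0054 (replicate 1) or -0.28 (replicate 2).

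The promoter of a synthetase can carry the core of the amino acid response element, the CEBP-ATF composite bound by ATF4. The core TGATGNAA was searched on both strands in the 250 bases before the first start site listed for each gene by RefSeq (GRCh38.p14), and was found in 2 of 14 synthetase promoters (14.3%), against 1.36% of the promoters of tested genes and 3.19% of all promoters. Both are shown, with the match in capitals; it lies on the opposite strand in each. The AARS1 stretch is chr16:70289656-70289723 and the IARS1 stretch chr9:92293698-92293740, both written along the gene, which is on the minus strand.
AARS1: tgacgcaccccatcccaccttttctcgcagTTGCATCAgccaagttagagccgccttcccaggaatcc
IARS1: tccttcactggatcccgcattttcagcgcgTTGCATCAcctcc
These members were picked for the match and not for their values. AARS1 read 11.57 and 11.83 with vehicle against 11.16 and 11.46 with EC50 obatoclax, and IARS1 12.54 and 12.68 against 12.12 and 12.11, so that both lay below vehicle on both EC50 arrays. A match and a lower value went together in some other genes and not in all. The core was in 2 of 8 promoters of amino acid synthesis genes and 1 of 7 of the transcription factors of the response. It was in 0 of 9 transporter and 0 of 8 effector promoters. The 8 leave out CHAC1, which holds the core but was not tested. Among other genes with the core, ATF3, HERPUD1 and YARS2 lay below vehicle on both EC50 arrays. The arrays of ASNS, EBF1, IL7R and ZAP70, which also hold it, overlapped. Further genes hold the core, among them BCAT1, HK1, PLK3, RPS23 and TSC2, and their values are not given here.

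The transcription factors at the head of this response were lower as well. ATF4 RNA read 13.06 and 12.80 against 12.76 and 12.25, a difference of -0.42 ± 0.24. CEBPB, a bZIP partner, read 9.52 and 9.33 against 8.66 and 8.33, a difference of -0.93 ± 0.24. DDIT3 (CHOP), which couples the response to cell death, differed by -0.28 ± 0.22, and ATF3, a repressor induced by stress, by -0.40 ± 0.29. Of 7 tested factors, 6 were lower and the median was -0.33, from -0.40 to -0.17 (the latter without EC50 replicate 2), and 5 were lower without vehicle replicate 1. ATF4 differed by -0.17 without EC50 replicate 2 and by -0.67 without EC50 replicate 1. Effectors and feedback genes were mixed: 4 of 9 were lower, with a median of 0.018 that turned to -0.22, -0.06 and -0.02 without vehicle replicate 2, EC50 replicate 1 and EC50 replicate 2. Among them TRIB3, a pseudokinase that restrains ATF4, read 6.78 and 6.79 against 6.28 and 6.36, EIF4EBP1, the brake on cap-dependent translation, 9.24 and 9.08 against 8.61 and 8.53, and SESN2, a leucine sensor, 6.63 and 5.45 against 5.01 and 4.67. The SESN2 difference of -1.20 ± 0.43 was -0.61 without vehicle replicate 1. DDIT4, an mTOR inhibitor, followed the replicate number instead of the dose, with 11.06 and 9.75 against 11.26 and 9.67. CHAC1, a glutathione-degrading enzyme and common marker of the response, stayed under the floor, with 3.24 and 2.94 against 2.86 and 2.86.

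**Figure D2:**
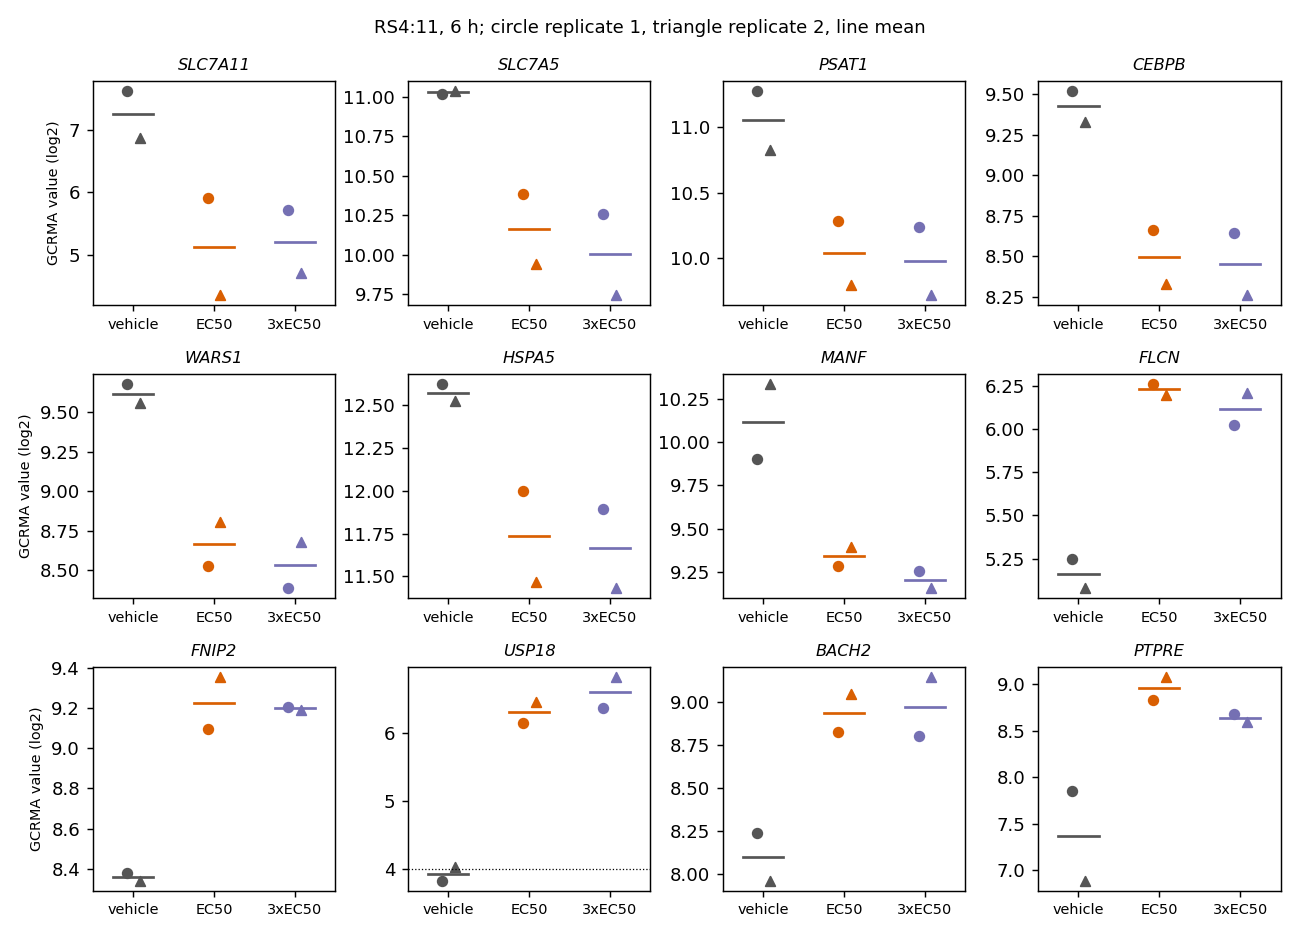
GCRMA values (log2) of 12 genes on the 6 arrays of RS4:11; each panel is a gene, the x axis is the dose, a circle is replicate 1, a triangle replicate 2, a line the mean of 2 arrays, and the dotted line for USP18 the floor of 4. The y axes span different ranges and do not start at 0: the first 7 genes, SLC7A11 to MANF, read lower on both EC50 arrays than on both vehicle arrays, and the last 5, FLCN to PTPRE, read higher.

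ER chaperones and folding enzymes lay below vehicle in 17 of 20 genes, all 20 of which were tested, with a median of -0.33. 7 had an unadjusted p under 0.05, all lower, and the arrays of 13 were apart below and of 1 above. The shares over all genes were 1.73%, 12.9% and 17.5%, in that order. HSPA5 (BiP), the main chaperone of the ER lumen, read 12.62 and 12.53 with vehicle and 12.001 and 11.467 with EC50 obatoclax, -0.84 ± 0.22. Its cochaperones followed the same order: SDF2L1 read 8.53 and 9.10 against 7.969 and 7.997 (-0.83 ± 0.20), and DNAJB11 10.66 and 10.61 against 10.03 and 10.10 (-0.57 ± 0.15). MANF read 9.90 and 10.34 against 9.28 and 9.39, a difference of -0.78 ± 0.17. HSP90B1 (GRP94) read 11.67 and 11.73 against 11.35 and 10.93, which is 0.56 ± 0.25 lower. ERO1B, an oxidase that keeps disulphide bonds forming, was on the other side, with 6.41 and 6.46 against 6.86 and 6.81. Adjusted p-values of the chaperones named ran up to 1.00, as for most genes. On leaving out each array the list median ran from -0.40 to -0.32.

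The ER stress element, CCAAT and CCACG separated by 9 bases of any kind and searched on both strands, bound by ATF6 together with NF-Y, was found in 6 of 19 chaperone promoters (31.6%), against 0.149% of the promoters of tested genes and 0.0806% of all promoters. 3 of the 6 are shown because their genes had an unadjusted p under 0.05. Capitals mark the element, or its reverse complement where it lies on the other strand. The HSPA5 stretch is chr9:125241361-125241439 (minus strand), that of HSP90B1 chr12:103930201-103930354 (plus strand) and that of CRELD2 chr22:49918524-49918602 (plus strand).
HSPA5: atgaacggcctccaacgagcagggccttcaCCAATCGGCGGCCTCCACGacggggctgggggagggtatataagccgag
HSP90B1: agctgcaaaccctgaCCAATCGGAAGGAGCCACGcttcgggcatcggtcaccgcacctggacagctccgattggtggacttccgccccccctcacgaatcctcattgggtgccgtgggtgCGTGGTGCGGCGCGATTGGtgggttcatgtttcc
CRELD2: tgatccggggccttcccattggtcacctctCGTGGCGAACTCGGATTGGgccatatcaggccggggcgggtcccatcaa
CRELD2, a disulphide isomerase, read 8.59 and 8.78 with vehicle and 8.04 and 8.20 with EC50 obatoclax. A match did not go with a lower value in every gene: ERO1B, which was higher, also holds the element. So does CALR, whose arrays overlapped (10.51 and 10.32 against 9.88 and 10.65).

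The sensors of the unfolded protein response and the genes of ER-associated degradation did not share the chaperones' order, with a median of -0.04 over 16 genes (-0.09 without vehicle replicate 2 and -0.08 without EC50 replicate 1). HERPUD1, which helps to export misfolded proteins, read 10.68 and 10.46 against 10.21 and 9.87, a difference of -0.53 ± 0.20. ERN1 (IRE1), the sensor that splices XBP1 RNA, read 3.41 and 3.87 against 4.09 and 4.12, near the floor. XBP1 differed by 0.18 ± 0.27, with overlapping arrays, and its splicing cannot be read from these probe sets. Of 15 tested heat shock genes of the cytosol and mitochondria, 14 were lower by a median of -0.13 (-0.05 without EC50 replicate 1), and HSPA9, the mitochondrial HSP70, had the smallest p (11.84 and 11.91 against 11.29 and 11.47).

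Ribosome biogenesis genes, which build ribosomes in the nucleolus, were all 28 below vehicle, with a median of -0.33. 6 had an unadjusted p under 0.05, or 13 with the replicate block, and the arrays of 17 were apart. On the lower side the shares over all genes were 1.73%, 3.41% and 12.9%, in that order. RRS1, an assembly factor of the large subunit, read 11.33 and 11.57 against 10.79 and 11.04, a difference of -0.54 ± 0.19. UTP4 and UTP15, parts of the small subunit processome, differed by -0.49 ± 0.16 and -0.59 ± 0.23. The median ran from -0.45 without vehicle replicate 1 to -0.21 without vehicle replicate 2. Ribosomal protein genes had 16 of 19 above vehicle, or 10 of 19 without vehicle replicate 1, and a median of 0.03 (0.018 to 0.045), and RPS6KB1, the S6 kinase of the mTOR pathway, read 9.62 and 9.72 against 9.28 and 9.27.

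**Figure D3:**
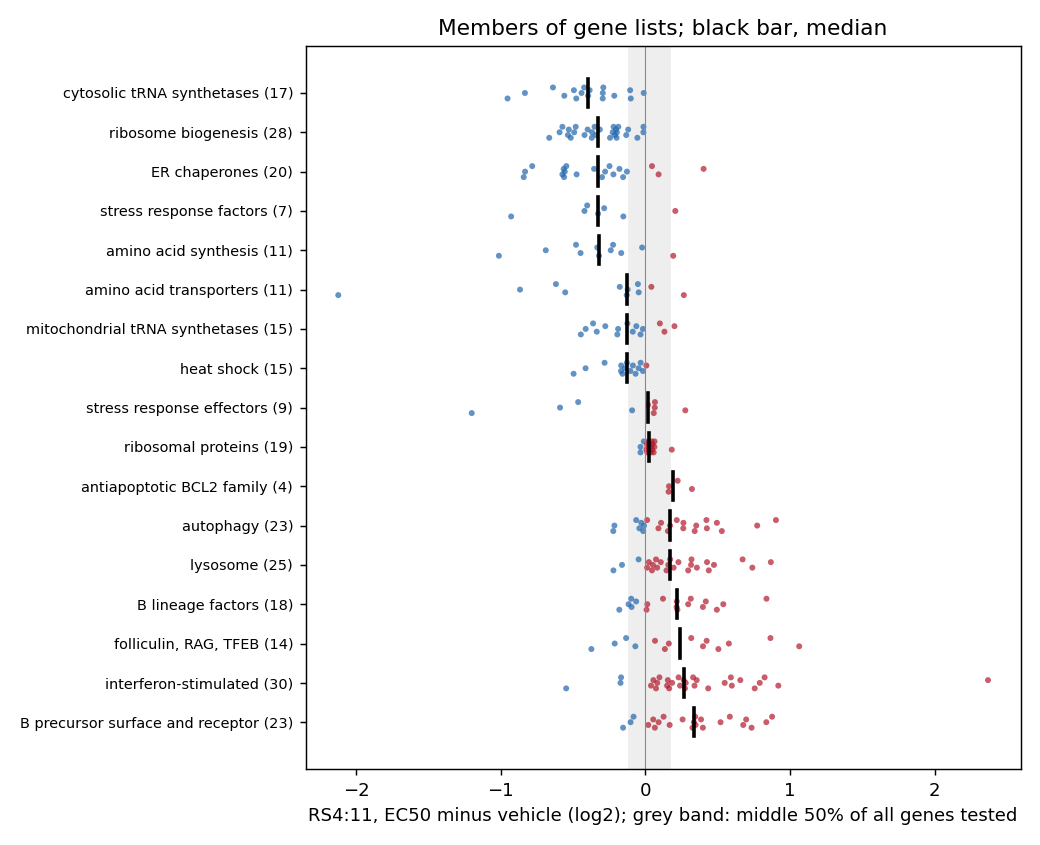
Differences EC50 minus vehicle in RS4:11 (log2, x axis) for the tested members of 17 gene lists (rows, number tested in brackets); points are genes, red above and blue below 0, black bars are list medians, and the grey band holds the middle 50% of all 10561 genes. The bars of tRNA synthetases (-0.40), ribosome biogenesis (-0.33) and ER chaperones (-0.33) lie to the left of the band, and those of interferon-stimulated (0.27) and B precursor genes (0.34) to its right.

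Other groups had more members above vehicle than below it, against 55.7% above over all genes. An unadjusted p under 0.05 on the higher side was found for 2.47% of all genes. Of 14 tested genes of folliculin, the RAG GTPases, the Ragulator complex and the TFEB family, 10 were higher, 5 with an unadjusted p under 0.05, and the median was 0.24, from 0.17 without vehicle replicate 2 to 0.40 without vehicle replicate 1. RRAGC, the RAG subunit on which folliculin acts, read 8.39 and 8.35 with vehicle and 8.80 and 8.95 with EC50 obatoclax, 0.50 ± 0.17. Its paralogue RRAGD read 8.05 and 7.41 against 8.54 and 8.08, a difference of 0.58 ± 0.28. The transcription factor TFEB differed by 0.07, with overlapping arrays. Of 25 tested lysosomal genes, 22 were higher by a median of 0.17, from 0.13 without EC50 replicate 2 to 0.29 without vehicle replicate 1. The cholesterol carrier NPC2 read 9.32 and 9.11 against 10.08 and 10.08 (0.87 ± 0.33), and the sialidase NEU1 7.01 and 6.73 against 7.62 and 7.60 (0.74 ± 0.28). Of 23 autophagy genes, 16 were higher by a median of 0.17 (0.10 without vehicle replicate 2). WIPI1, which marks early autophagosomes, read 4.28 and 4.20 against 4.65 and 5.63. The kinase ULK2 read 3.79 and 3.82 against 4.53 and 4.63. Its vehicle mean lay under the floor, so its fold is a lower bound, at least 1.49-fold higher. Among the arrays of this line and the SEM-K2 vehicle and EC50 arrays, only treated arrays of this line read ULK2 above the floor. ULK2 thus passed the filter through arrays where it was high. Its SEM-K2 difference of -0.21 was taken between values under the floor. The cargo receptor SQSTM1 (p62) overlapped between groups, with 9.65 and 9.52 against 9.57 and 9.95.

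Interferon-stimulated genes were higher in 27 of 30 tested members, with a median of 0.27. 8 had an unadjusted p under 0.05, all higher, and the arrays of 14 were apart above and of 1 below. The shares over all genes were 2.47%, 17.5% and 12.9%, in that order. After USP18, the smallest p belonged to DDX60, a helicase of antiviral sensing (5.99 and 5.67 against 6.97 and 6.34, a difference of 0.82 ± 0.23), and IFI44 (5.70 and 5.26 against 6.08 and 6.19, 0.66 ± 0.19). Classic members did not stand out: ISG15 read 8.33 and 8.69 against 8.27 and 8.41, and MX1, RSAD2 and IFIT1 were at or under the filter. The median was 0.38 without vehicle replicate 1 and 0.15 without vehicle replicate 2. The interferon element, a pair of GAAA with 2 bases of any kind between the copies and searched on both strands, lay in 14 of 23 promoters of the list (60.9%), against 2.43% of the promoters of tested genes and 3.07% of all. The promoters of DDX60 (chr4:168318776-168318860, minus strand) and IFI44 (chr1:78649741-78649788, plus strand) are shown as those of the 2 genes just described; capitals mark the element or its reverse complement.
DDX60: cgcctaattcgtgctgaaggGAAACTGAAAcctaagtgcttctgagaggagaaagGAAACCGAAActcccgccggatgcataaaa
IFI44: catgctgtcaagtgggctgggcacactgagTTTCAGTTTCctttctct
DDX60 holds it at 2 places and IFI44 at 1. The match describes the letters only, since no binding was measured.

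B lineage genes also lay above vehicle. Of 23 tested surface and receptor genes, 20 were higher by a median of 0.34, but 1 had an unadjusted p under 0.05, or 5 with the replicate block, and the arrays of 10 were apart. On the higher side the shares over all genes were 2.47%, 4.57% with the block and 17.5%, in that order. The median of the list was 0.43 without vehicle replicate 1 and 0.18 without vehicle replicate 2. RAG1, a recombinase of antigen receptor genes, read 9.73 and 8.90 against 10.06 and 10.32, a difference of 0.88 ± 0.32. Transcription factors were mixed, with 13 of 18 higher, a median of 0.22 and 0.08 without vehicle replicate 2. The lineage regulators PAX5 (12.57 and 12.66 against 12.54 and 12.46) and EBF1 (12.90 and 12.61 against 12.91 and 12.42) were among the 5 that were lower. Of those higher, BACH2, a repressor that guards the pre-B cell checkpoint, read 8.24 and 7.96 against 8.83 and 9.05, 0.84 ± 0.17, and IRF8 8.10 and 7.86 against 8.28 and 8.52. 2 signalling genes had larger differences. PTPRE, a receptor-type tyrosine phosphatase, read 7.86 and 6.89 against 8.84 and 9.08, a difference of 1.58 ± 0.33, or 2.07 without vehicle replicate 1 and 0.63 with the mean of its probe sets. GPR18, a G protein-coupled receptor of lymphocytes, read 8.20 and 7.64 against 9.34 and 9.04, 1.27 ± 0.38. Of the KMT2A fusion's target and partner genes, 20 of 24 were above vehicle by a median of 0.09, which was 0.17 without vehicle replicate 1 (17 above), 0.02 without vehicle replicate 2 and -0.03 without EC50 replicate 1. At 3xEC50, 11 of the 24 were above vehicle. MYB read 13.08 and 13.04 against 13.32 and 13.51, and EYA1 was lower, with 5.10 and 5.81 against 4.61 and 4.49.

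The proteins that obatoclax was designed against showed small RNA differences. BCL2 read 11.02 and 10.98 with vehicle and 11.27 and 11.18 with EC50 obatoclax, 0.22 ± 0.13, and was the one tested antiapoptotic member whose arrays did not overlap. MCL1 differed by 0.16 ± 0.17, BCL2L2 by 0.16 ± 0.22 and BCL2L1 by 0.32 ± 0.72. BCL2A1 stayed under the floor, with 2.55 and 2.54 against 2.57 and 2.62. The probe sets of BCL2, BCL2L1 and MCL1 disagreed in sign, from -0.30 to 0.33 for BCL2, from -0.11 to 0.46 for BCL2L1 and from -0.57 to 0.16 for MCL1. Among the effectors, BAX read 7.46 and 8.33 against 7.37 and 6.40. Its groups did not overlap, but the replicates did not lie close together, and the difference was -1.01 ± 0.70. BAK1 differed by 0.25 ± 0.25. Over the proapoptotic list 7 of 10 were higher, the arrays of 4 were apart above and of 2 below, and the median was 0.087, or -0.0073 without EC50 replicate 2. Of the BH3-only genes, which start apoptosis by binding BCL2 proteins, BCL2L11 (BIM) differed by 0.03 ± 0.25 and PMAIP1 (NOXA) by -0.27 ± 0.21, while BIK had the highest difference of the list (7.15 and 6.32 against 7.68 and 7.69, 0.95 ± 0.44). None of the 14 tested genes of both arms had an unadjusted p under 0.05, against 2.47% higher and 1.73% lower over all genes. With so few genes, a count of 0 lies near those shares. With the replicate block, 1 proapoptotic gene had such a p on the higher side and 1 on the lower side. Over all genes, arrays were apart above for 17.5% and below for 12.9%.

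Death receptor, NF-kappaB and p53 genes gave single differences. Of 14 tested NF-kappaB genes, 12 were higher by a median of 0.08, or 0.20 without vehicle replicate 1 and 0.05 without vehicle replicate 2. TNFAIP3 (A20), a feedback inhibitor of the pathway, read 5.40 and 5.45 against 6.64 and 6.87, a difference of 1.33 ± 0.41. NFKBIA differed by 0.28 ± 0.24 and CD83 by 0.36 ± 0.22. CYLD, a deubiquitinase that permits necroptosis, read 6.20 and 6.55 against 6.63 and 7.14, although its 4 probe sets ran from -0.19 to 0.51. MDM2, the p53 ligase and p53 target, read 10.97 and 11.00 against 10.53 and 10.24, and its 8 probe sets ran from -1.06 to 0.36. DUSP1, an immediate early phosphatase, read 11.52 and 10.87 against 11.90 and 11.81, the insulin adaptor IRS2 8.95 and 8.92 against 9.24 and 9.39, and the respiratory chain subunit SDHA 10.22 and 10.42 against 10.63 and 10.82. Cell cycle genes depended on single arrays: 25 of 26 mitosis genes were above vehicle by a median of 0.20, no member's arrays were apart, and the median was 0.68 without vehicle replicate 1. It was -0.10 without EC50 replicate 1 and -0.22 without vehicle replicate 2.

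At 3xEC50 the same genes were measured against the same 2 vehicle arrays, so the doses share their controls. No gene (0%) was called between 3xEC50 and EC50 with limma, where 85 of 10561 had an unadjusted p under 0.05. Chance alone would give about 528. For the 39 genes of amino acid supply and tRNA charging the median against vehicle was -0.43 at 3xEC50 and -0.32 at EC50. SLC7A11 differed from vehicle by -2.05 and -2.12, HSPA5 by -0.91 and -0.84, and FLCN by 0.95 and 1.06, at 3xEC50 and EC50 in that order. ACVR2B was an exception, with 3.77 and 3.78 at 3xEC50, at its vehicle level and -1.01 below EC50 (adjusted p = 0.42). FZD6 read 3.65 and 4.03 at 3xEC50 against 4.88 and 4.88 at EC50.

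SEM-K2 at its own EC50 was measured on other arrays, and 18 genes were called against its vehicle with limma (12 higher and 6 lower), against 0 in RS4:11. Lists differed in which line had the larger median: NF-kappaB genes had 0.53 in SEM-K2 and 0.08 in RS4:11, and lysosomal genes 0.27 and 0.17. For the 39 genes of amino acid supply and tRNA charging the median was -0.15 in SEM-K2 and -0.32 in RS4:11, and 31 were more negative in RS4:11. 3 of the 39 had an unadjusted p under 0.05 for that difference between lines, and 0 were called. Over all 10561 genes, 57.3% differed between the lines in that direction, and 110 had an unadjusted p under 0.05 that way. CEBPB read 9.14 and 8.44 with vehicle and 9.07 and 9.18 with EC50 obatoclax in SEM-K2, 0.33 higher, against 0.93 lower in RS4:11; the difference between the lines was 1.26 ± 0.34 (adjusted p = 1.00). DDIT3 was 0.76 higher in SEM-K2 and TRIB3 0.42 higher, while both were lower in RS4:11. FLCN, FNIP2 and USP18, by contrast, had SEM-K2 differences of 1.10, 0.73 and 1.89, beside RS4:11 values of 1.06, 0.86 and 2.37. In SEM-K2 the FLCN difference was called with limma (adjusted p = 0.033), and those of FNIP2 and USP18 were not. The EC50 concentrations need not be the same in the 2 lines, so dose and line cannot be told apart here.

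**Figure D4:**
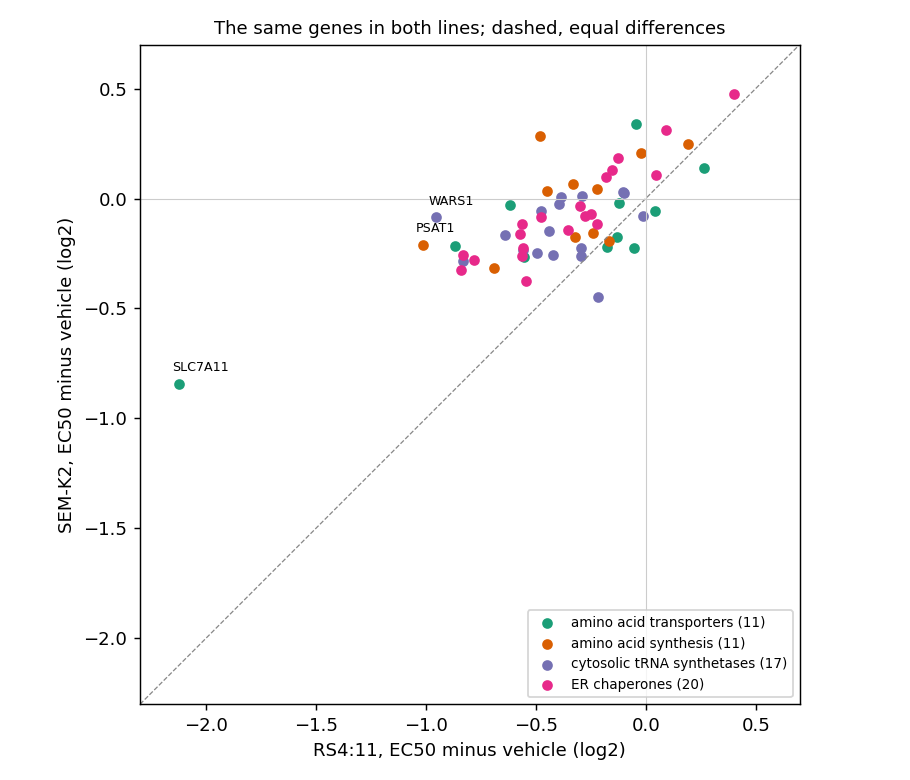
Each point is a tested gene of amino acid transport (11), amino acid synthesis (11), cytosolic tRNA charging (17) or ER chaperones (20); the x axis is EC50 minus vehicle in RS4:11 and the y axis the same in SEM-K2 (log2, 2 arrays a group), and the dashed line marks equal differences. Of the 39 genes outside the chaperones, 36 lie left of 0 and 31 above the dashed line; SLC7A11 reads -2.12 in RS4:11 and -0.84 in SEM-K2.

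1 gene (0.00947%) was called for a difference in response between the lines. KANK1, which links integrin adhesions to the cell cortex, stayed under the floor in RS4:11, with 2.55 and 2.22 on vehicle and 2.58 and 2.43 on EC50 arrays. In SEM-K2 it read 2.54 and 2.54 with vehicle and 6.61 and 6.55 with EC50 obatoclax. In SEM-K2 this is at least 5.98-fold higher. The fitted difference between the responses of 3.92 ± 0.25 (adjusted p = 5.28e-04) was taken against values under the floor and is no measured size, and the gene passed the filter only through treated SEM-K2 arrays. ENPP2 (autotaxin), which makes lysophosphatidic acid, had a like pattern, with 2.40 and 2.75 against 2.63 and 2.41 in RS4:11 and 2.89 and 3.18 against 6.91 and 5.95 in SEM-K2, at least 5.39-fold higher in SEM-K2, and missed the threshold for the difference between lines (adjusted p = 0.077).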

How the data were processed

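RNA of 12 samples was hybridised to 1-colour arrays; 4 are compared here. What the authors deposited was made with GCRMA, as the submitters' processing notes record without a version or a scale. GCRMA corrects background by probe sequence and normalises by quantiles. They were read as log2, since the deposited values run from 0.64 to 16.22 with array medians of 3.13 to 3.16. Every array column was mapped to a sample. Precision here is limited by how many arrays there are.

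Of 54675 probe sets, 41091 named exactly 1 symbol and were used, 1801 several and 11777 none; 41037 matched RefSeq by Entrez identifier. Each of 19775 genes was represented by its probe set with the highest mean, and 10561 genes exceeded 4 in at least 2 arrays. Of these, 3288 rest on probe sets ending in _s_at and 675 in _x_at, which can match relatives. limma 3.58.1 in R 4.3.3 fitted all 12 arrays with 6 group means (6 residual, 3.27 prior degrees of freedom), with Benjamini-Hochberg adjustment and calls under 0.05. A group mean under 4 was set to 4 for a lower bound of a fold.

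The named genes were the 10 smallest p-values a direction with arrays apart and a difference of at least 0.5, up to 3 members a list with an unadjusted p under 0.05 and arrays apart, fixed genes of interest and genes called in the other contrasts. Genes named outside this rule were chosen for a promoter match, a probe limit or after their values were seen. The 41 lists (812 genes, 628 tested) and the members were chosen with earlier results of these data known. Lists were described by counts and medians only.

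The titles number replicates 1 and 2. Deviations of replicate 1 from its group mean correlated between groups by 0.19 to 0.60 over the 15 pairs of groups (0.57 for RS4:11 vehicle with EC50), so the numbers were read as pairing the samples, from the data and not from a stated design. Alternatives were the block, fewer arrays in the fit, other floors, probe set rules, scalings and moderation, and leaving out each array. The fit was tested on simulated data.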

Additional observations from a re-analysis of the deposited data

Results flagged for a closer look

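KANK1 responded differently in the 2 lines by a test of the difference itself: the EC50 response in SEM-K2 exceeded that in RS4:11 by a fitted 3.92 on the log2 scale. Both RS4:11 groups and the SEM-K2 vehicle arrays were under the floor, so that value is no measured size; SEM-K2 was at least 5.98-fold higher with EC50 obatoclax. 3 list medians went one way within both replicate numbers of RS4:11 and the other way within both of SEM-K2; these differences were not tested. Transcription factors of the integrated stress response had a median of -0.33 in RS4:11, with -0.30 and -0.29 within numbers 1 and 2, against 0.02 and 0.74 in SEM-K2. Its effectors and feedback genes had a median of 0.018 over the group means in RS4:11, but of -0.10 and -0.07 within numbers, against 0.19 and 0.45 in SEM-K2. Unfolded protein response sensors and ER-associated degradation genes had a median of -0.043 in RS4:11, with -0.12 and -0.02 within numbers, against 0.01 and 0.06. Groups of 2 arrays were too small for a test of outlying samples.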

How the results depend on the processing

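The comparison of EC50 with vehicle had 0 called genes in 10 of the 13 settings that kept all replicates of both groups. It had 2 with no filter on low values (SLC6A8 and MIATNB), 1 with a floor of 3 (SLC6A8) and 1 with the mean of all probe sets of a gene (COL5A1). SLC6A8 read 2.65 and 2.64 against 3.61 and 3.62, all under the floor of 4. Leaving out 1 array at a time gave 0 to 3 calls: 3 without RS4:11 vehicle replicate 1 (PSTPIP2, FZD6 and MEGF10), and 1, USP18, without SEM-K2 vehicle replicate 1 or 2. The replicate block gave 0 calls and changed no other call. For the difference between lines the replicate block gave 1 call, and the block within line gave 2, as did no filter, a floor of 6, the mean of probe sets (where KANK1 was not called) and a second quantile normalization; leaving out arrays gave 1 to 4, with 4 without SEM-K2 EC50 replicate 1. The step from EC50 to 3xEC50 gave 2 calls with no filter, 1 with a floor of 3, and 0 on leaving out any array. The causes were not tested.

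Of 86 named genes tested, 10 had another sign in some of the 25 settings. MCL1 was -0.15 and NFKBIA -0.055 with the mean of probe sets, and BCL2L11 -0.0070 with arrays centred on their median. On leaving out arrays, BCL2L11 ran from -0.20 to 0.26, BCL2L1 from -0.20 to 0.84, DDIT4 from -0.73 to 0.86, ASNS from -0.35 to 0.018, XBP1 from -0.13 to 0.50, SQSTM1 from -0.021 to 0.36, KANK1 from -0.040 to 0.28 and ENPP2 from -0.23 to 0.12. Medians kept their sign in all 25 settings for amino acid transport (-0.32 to -0.09), amino acid synthesis (-0.41 to -0.18), tRNA synthetases (-0.52 to -0.31), ER chaperones (-0.42 to -0.30), ribosome biogenesis (-0.45 to -0.21), interferon-stimulated genes (0.15 to 0.38) and the folliculin list (0.14 to 0.40). Among medians given above, the sign turned for integrated stress response effectors in 7 settings and for mitosis genes in 2. It turned in 1 each for mitochondrial tRNA synthetases, KMT2A targets, proapoptotic genes (all on leaving out an EC50 array) and ribosomal proteins (arrays centred on their median). Medians not given above turned sign too. Among others, this was so in 3 settings each for death receptor and respiratory chain genes and in 2 for mTOR genes. It was so in 1 each for p53, immediate early, and FOXO and insulin genes.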
